A study of Mus musculus with 6 samples.

Results

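The mouse Mage cancer-testis genes measured here are Magea3, Magea4, Magea5, Magea6, Magea10, Mageb3, Mageb4 and Mageb18, 8 of the 19938 genes with a probe set of their own on an Affymetrix expression array. Members were chosen by gene symbol, and the family was put forward because earlier results of these same arrays had shown some of its genes higher with vitamin C, so the members' levels and differences are given as a description, without a test. Where a gene had several probe sets with only its symbol, the one with the highest mean over all arrays stood for it. RNA came from 3 cultures of Oct4-GiP mouse embryonic stem (ES) cells given vitamin C as L-ascorbic acid 2-phosphate at 200 μg/ml for 72 hours and from 3 untreated cultures of the same line, which the design text calls biological triplicates. Gelatin-coated plates and N2B27 medium were common to both groups, as were LIF (1000 U/ml), the MEK inhibitor PD0325901 (1 μM) and the GSK3β inhibitor CHIR99021 (3 μM). The Oct4-GiP line carries a reporter and selection cassette under Oct4 regulatory sequences, and only this 1 line was used. The comparison asked which transcripts differ after vitamin C, a cofactor of iron- and oxoglutarate-dependent dioxygenases such as the TET enzymes.

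MAGE proteins share a conserved MAGE homology domain through which many of them bind RING-type ubiquitin ligases and change what those ligases act on. The family divides into type I genes (Magea, Mageb and, in humans, MAGEC), which in adult animals are transcribed mainly in testis and reappear in many tumours, and type II genes (such as Maged1, Mageh1, Ndn and Nsmce3), which are transcribed in many tissues. Type I genes are well known for silencing by DNA methylation in somatic cells, and inhibitors of DNA methylation switch several of them on in cultured human cells. In mice, Magea genes protect male germ cells under nutritional and genotoxic stress. The human relatives MAGEA3 and MAGEA6 act with the ligase TRIM28, and human MAGE-B18 binds the ligase LNX1.

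The RefSeq promoter table (GRCm38.p6) held all 8 genes, and 7 of them lie on the X chromosome and Mageb3 on chromosome 2. The 250 bases before the annotated start are shown for the Magea genes with the largest differences between the groups, for a Mageb gene with a smaller one (Mageb4) and for the autosomal Mageb3, with each CpG dinucleotide, the unit that DNA methyltransferases and TET enzymes act on, in capitals and all bases written 5′ to 3′ on the gene's own minus strand. The windows lie at chrX:155061554-155061803 (Magea5), chrX:154926116-154926365 (Magea6), chrX:154949570-154949819 (Magea3), chrX:86256220-86256469 (Mageb4) and chr2:121956093-121956342 (Mageb3).
Magea5: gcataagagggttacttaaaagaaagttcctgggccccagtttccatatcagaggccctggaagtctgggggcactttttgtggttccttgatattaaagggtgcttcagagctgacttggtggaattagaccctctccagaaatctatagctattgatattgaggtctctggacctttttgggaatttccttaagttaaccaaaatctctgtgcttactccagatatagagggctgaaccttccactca
Magea6: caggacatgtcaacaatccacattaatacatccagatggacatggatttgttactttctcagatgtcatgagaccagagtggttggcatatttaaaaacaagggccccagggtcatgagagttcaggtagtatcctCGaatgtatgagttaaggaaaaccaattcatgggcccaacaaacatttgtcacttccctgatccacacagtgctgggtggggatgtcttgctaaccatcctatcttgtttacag
Magea3: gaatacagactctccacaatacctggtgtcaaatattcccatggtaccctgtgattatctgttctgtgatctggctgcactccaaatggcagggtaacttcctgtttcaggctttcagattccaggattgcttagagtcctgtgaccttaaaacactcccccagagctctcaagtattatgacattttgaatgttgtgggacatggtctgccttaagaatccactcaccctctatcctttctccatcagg
Mageb4: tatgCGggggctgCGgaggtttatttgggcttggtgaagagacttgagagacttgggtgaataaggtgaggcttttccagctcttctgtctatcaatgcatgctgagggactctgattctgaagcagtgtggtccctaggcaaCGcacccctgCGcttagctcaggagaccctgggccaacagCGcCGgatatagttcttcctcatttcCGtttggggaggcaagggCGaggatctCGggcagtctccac
Mageb3: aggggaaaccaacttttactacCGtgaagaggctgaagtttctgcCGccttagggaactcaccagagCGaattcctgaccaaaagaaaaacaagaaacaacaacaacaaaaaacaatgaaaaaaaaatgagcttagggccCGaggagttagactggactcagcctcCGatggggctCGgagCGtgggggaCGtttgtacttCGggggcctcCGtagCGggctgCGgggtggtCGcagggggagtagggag

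The windows of the Magea members were poor in CpG. The count was 0 in Magea3, Magea4 and Magea5, 1 in Magea6 and 2 in Magea10, where the median over 32851 promoter windows of the same length was 6 and 29.0% held 2 or fewer. Other Magea genes of the cluster of Magea3, Magea5 and Magea6, without a probe set of their own, varied. Magea1 held 0 CpG, Magea2 8 and Magea8 7. Among the Mageb genes the count was 1 in Mageb18, 9 in Mageb4 and 13 in Mageb3. The GC content of the member windows ran from 34.0% in Mageb18 to 55.2% in Mageb4, against a median of 52.4% over all windows. The Magea3 and Magea5 windows were 46.4% identical in a global alignment, Magea3 and Magea6 49.3%, and Magea5 and Magea6 45.1%. Pairs of a Magea and a Mageb window gave similar values, such as Magea3 and Mageb4 (45.2%) or Magea2 and Mageb18 (44.9%). Identities of this size therefore do not tell related windows from unrelated ones. Whether the annotated starts fall at matching places of these genes, or are the starts used in these cells, was not tested. Magea3 and Magea1, a gene of the same cluster with no probe set of its own here, were 84.1% identical. The windows of Magea2 and Magea8, which held more CpG, were 81.5% identical to each other. The letters CAGGAA, an ETS-type core, were found on either strand in Magea3, Magea4, Magea5, Magea10 and Mageb3, 5 of the 8 windows, and in 25.7% of all windows. The E-box CACGTG (6.02% of all windows), the GC box GGGCGG (32.7%), the ETS-type core CCGGAA (12.0%) and the E2F-type letters GCGGGAA (3.82%) were in none of the 8, and TATAAA (12.4%) was in Mageb18 alone. Outside the members, CCGGAA was in the windows of Magea2 and Magea8. GGGCGG and GCGGGAA can share bases where both occur. A CpG count, a match or its absence describes this window only.

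**Figure D1:**
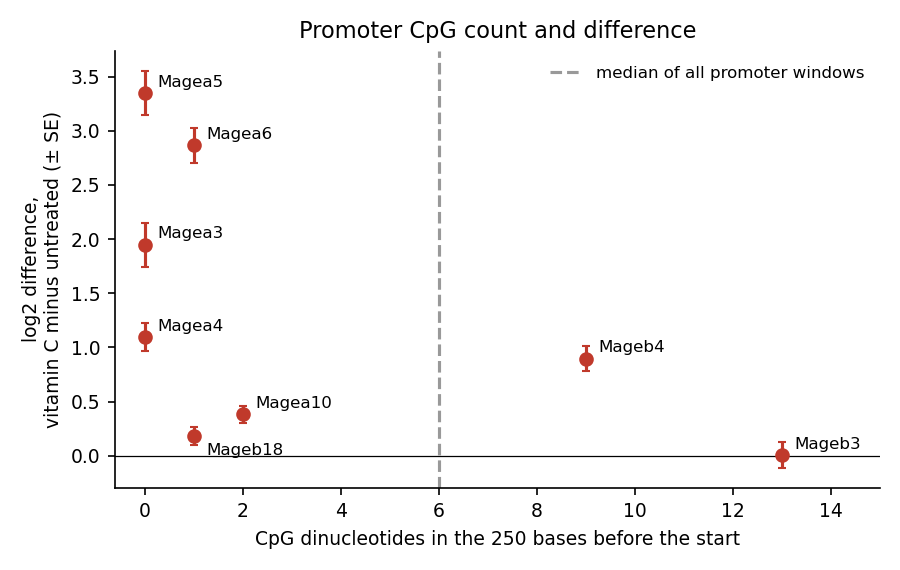
CpG dinucleotides in the 250 bases before the annotated start (x axis, count) against the log2 difference between vitamin C and untreated cells (y axis, points with the moderated SE) for the 8 Mage genes, with the median over all promoter windows dashed. Magea5, Magea6 and Magea3 combine 0 or 1 CpG with the largest differences, while Magea4, Magea10 and Mageb18 have 0 to 2 CpG with differences between 0.18 and 1.09, and Mageb4 and Mageb3 lie at 9 and 13 CpG. Whether the annotated starts are those used in these cells was not tested.

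Array values are log2 signals, which can be compared between arrays for one probe set but not between probe sets. A signal was called dim on an array when it lay below that array's lower quartile over all 35557 probe sets (3.99 to 4.05). Such low signals hold much background, so folds taken from them are rough. In these bulk samples more Mage RNA per cell and more cells with Mage RNA cannot be told apart.

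Magea5, Magea6 and Magea3, which sit together on the X chromosome, showed the largest differences of the family and were dim in most untreated arrays. Magea5 had log2 signals of 7.13, 7.23 and 6.89 in vitamin C cells, against 4.16, 3.28 and 3.77 in untreated cells. The lowest vitamin C array lay 2.74 above the highest untreated array, and the untreated value was dim on 2 of the 3 arrays. The difference of the means (7.09 ± 0.17 with vitamin C, 3.74 ± 0.44 untreated, SD, n = 3 each) was 3.35 ± 0.21 on the log2 scale (moderated SE), or 10.2-fold, the second of the 19938 genes ordered from the largest rise. Magea6 gave 6.13, 6.38 and 5.93 in vitamin C cells and 3.00, 3.28 and 3.56 in untreated cells. The groups were again well apart, with all 3 untreated arrays dim and none of the treated ones. Its difference was 2.86 ± 0.16 (SE), or 7.28-fold. Magea3 measured 5.50, 5.74 and 5.21 with vitamin C and 3.14, 3.88 and 3.59 without, all 3 untreated values dim. The difference of 1.95 ± 0.20 (SE, 3.86-fold) exceeded the spread within either group (SD 0.27 with vitamin C and 0.38 untreated, n = 3 each).

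Magea4 and Magea10 lie near each other in another stretch of the X chromosome, and neither was dim on any array. Human MAGEA4 binds the ubiquitin ligase RAD18, which acts in DNA damage tolerance. Magea4 stood at 6.52, 6.86 and 6.61 in vitamin C cells and at 5.33, 5.77 and 5.61 in untreated cells, a difference of 1.09 ± 0.13 (SE, 2.14-fold) with no overlap. Magea10 had 6.05, 5.95 and 5.93 with vitamin C and 5.64, 5.67 and 5.48 without. Its groups were apart by only 0.26, and the difference was 0.38 ± 0.08 (SE, 1.30-fold).

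The Mageb genes differed among themselves. Mageb4, which in mice is known from germ cells, had 5.40, 5.82 and 5.80 in vitamin C cells and 4.76, 4.85 and 4.71 in untreated cells, with no overlap and no dim array. That is a difference of 0.90 ± 0.12 (SE, 1.86-fold), close to that of Magea4. Its second probe set, which is dimmer, gave 4.17, 4.68 and 4.67 with vitamin C and 3.70, 4.12 and 3.86 untreated, the groups being apart by 0.05 and the difference 0.61. Mageb18 was dim on all 6 arrays, at 2.63, 2.75 and 2.84 with vitamin C and 2.55, 2.46 and 2.68 without. Its groups overlapped, with a difference of 0.18 (1.13-fold), and whether it was expressed at all was not tested, since no detection calls were used. Mageb3, the autosomal member, measured 4.86, 4.67 and 4.70 in vitamin C cells against 4.77, 4.48 and 4.95 in untreated cells, so the groups overlapped throughout. The difference was 0.01 ± 0.12 (SE, 1.00-fold).

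Over the 8 members the median log2 difference was 0.99, where that of all genes tested was 0.01. Groups did not overlap for 6 of them, all higher with vitamin C, where 16.8% of all genes tested had every vitamin C array above every untreated one. These 6 were also called higher in the limma fit over all genes (adjusted p under 0.05), where 13.2% of all genes were called, 5.75% higher and 7.4% lower (1147 and 1476 genes, or 866 and 1830 with each array centred on its median). These counts describe genes that were put forward for this very difference, and nothing is read from them.

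**Figure D2:**
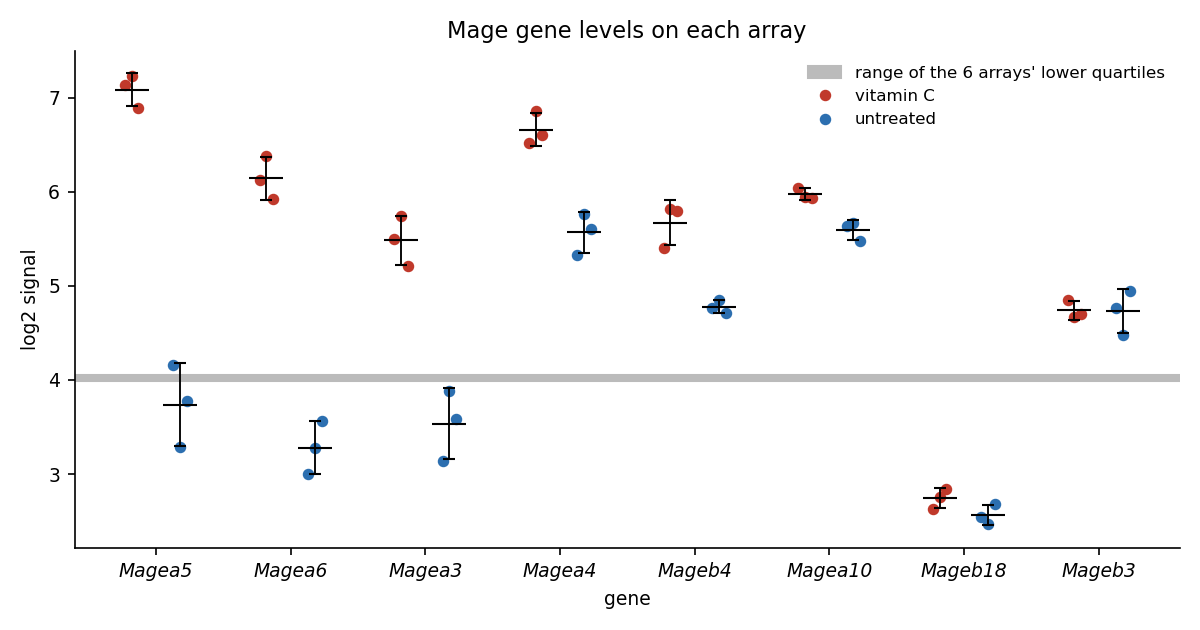
Log2 signal (y axis) of the 8 Mage genes (x axis, ordered by difference) on each vitamin C array (red) and each untreated array (blue). Horizontal marks with bars are group means with SD (n = 3), and the grey band spans the lower quartiles of the 6 arrays (3.99 to 4.05). For Magea5, Magea6 and Magea3 the vitamin C arrays lie far above the untreated ones, while the groups overlap for Mageb18 and Mageb3.

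All 10 ES-cell markers lay above the lower quartile on every array. In limma 3 were higher with vitamin C (Nanog, Zfp42 and Utf1), none was lower and 7 did not pass. For comparison with this and the marker counts below, limma called 5.75% of all genes tested higher and 7.4% lower. Of the 10 ES-cell markers, the groups did not overlap for 5 with vitamin C higher and for 3 with it lower. Those lower were Pou5f1 (difference -0.12), Dppa5a (-0.14) and Fgf4 (-0.13). The summed log2 signal of the ES-cell markers was 105.4 to 105.7 with vitamin C and 104.6 to 104.9 untreated. Of the fibroblast markers 7 of 12 were higher in limma and 5 did not pass, among them Fbln1, which lay lower in every vitamin C array (difference -0.35, limma adjusted p = 0.0506). Their summed signal was 75.4 to 76.2 with vitamin C against 68.6 to 69.9 untreated, and Lum and Postn were below the lower quartile on all 6 arrays. Germ-cell markers were summed at 88.5 to 90.03 with vitamin C and 84.4 to 85.3 untreated, with 4 of 14 higher and 10 not passing. Of trophectoderm markers 1 of 8 was higher and 2 were lower (summed signal 49.8 to 50.4 with vitamin C and 50.3 to 51.1 untreated), and of primitive endoderm markers 2 of 8 were higher, none lower and 2 at an unadjusted p under 0.05 (46.8 to 47.1 with vitamin C and 45.0 to 45.5 untreated). The part of such cells in the Mage differences was not tested. No array stood apart from its group: log2 signals over all genes correlated at 0.9953 to 0.9957 between arrays of 1 group and at 0.9886 to 0.9902 between arrays of different groups.

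Magea3, Magea5 and Magea6 belong to a cluster of close copies that also holds Magea1, Magea2 and Magea8. Probes can cross-hybridise between such copies, and probe sequences were not used here, so which copy gives how much of the signal is uncertain. A pair of probe sets is annotated to all 6 copies at once. One had 7.36, 7.45 and 7.17 in vitamin C cells and 4.52, 4.52 and 4.57 in untreated cells, and the other 7.28, 7.43 and 7.06 in vitamin C cells and 4.40, 4.47 and 4.40 in untreated cells. Unlike the probe sets of single copies, both were above the lower quartile on every untreated array, with an untreated SD of 0.03 and 0.04 (n = 3). Their differences of 2.79 and 2.83, or 6.90-fold and 7.12-fold, thus do not rest on values below the lower quartile. The untreated values still lay below the array medians (5.52 to 5.60), so background may hold part of them. Both differences lie between those of Magea3 and Magea6, whose copies these probe sets also cover. A probe set annotated to Magea8 and Magea3 had 5.95, 5.84 and 5.56 with vitamin C and 3.10, 3.63 and 2.89 without, 5.96-fold, with every untreated array dim. The probe sets shared by several symbols were not part of the gene test. Outside the cluster, both probe sets of Mageb16 and its pseudogene copy Mageb16-ps1 ran the other way: 1 had 7.20, 7.38 and 7.16 in vitamin C cells and 7.48, 7.68 and 7.72 in untreated cells, a difference of -0.38, and the other differed by -0.24. In neither did the groups overlap. The probe set of Mageb5 and Gm14781 was dim on all 6 arrays and differed by -0.04.

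The remaining 12 measured MAGE genes came from a list of type II genes and of all other Mage symbols. Of these, 1 was higher, none was lower and 11 did not pass limma (8.33% called against 13.2% of all genes), with a median log2 difference of 0.05. The gene that rose was the type I pseudogene Magea7-ps, with 4.86, 4.76 and 4.77 in vitamin C cells and 4.38, 4.49 and 4.51 in untreated cells (difference 0.34 ± 0.07, SE, adjusted p = 0.0176 in limma). Its call was lost without vitamin C replicate 1 or without untreated replicate 1, and over all settings tried its adjusted p ran from 0.0109 to 0.0601 (limma). The pseudogene Magea9-ps, in the same stretch as Magea4 and Magea10, differed by 0.14 ± 0.07 (SE, limma adjusted p = 0.267). Of the 9 listed type II genes 0 passed limma, and 1 had an unadjusted p under 0.05 (Mageh1, lower), while Maged1 passed with a trended and robust spread model (adjusted p = 0.0393). Maged1, an adaptor of p75 neurotrophin receptor signalling, differed by 0.13, Maged2, which acts in renal salt handling, by 0.07, Magee2 by 0.07, the imprinted growth suppressor Ndn by 0.05, the imprinted gene Magel2, a partner of the ligase TRIM27, by 0.04, Magee1, a component of the dystrobrevin complex, by -0.01, the trophoblast adhesion gene Tro by -0.09 and Nsmce3, a subunit of the SMC5/6 complex, by -0.10. Mageh1 differed by -0.22 ± 0.07 (SE, limma adjusted p = 0.0771). Magef1, which was not put on the type II list used here, differed by -0.22 ± 0.08 (SE, limma adjusted p = 0.129, unadjusted p = 0.0312). Neither passed, and in both every vitamin C array lay below every untreated one. The counts given for type II genes cover the listed genes only.

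**Figure D3:**
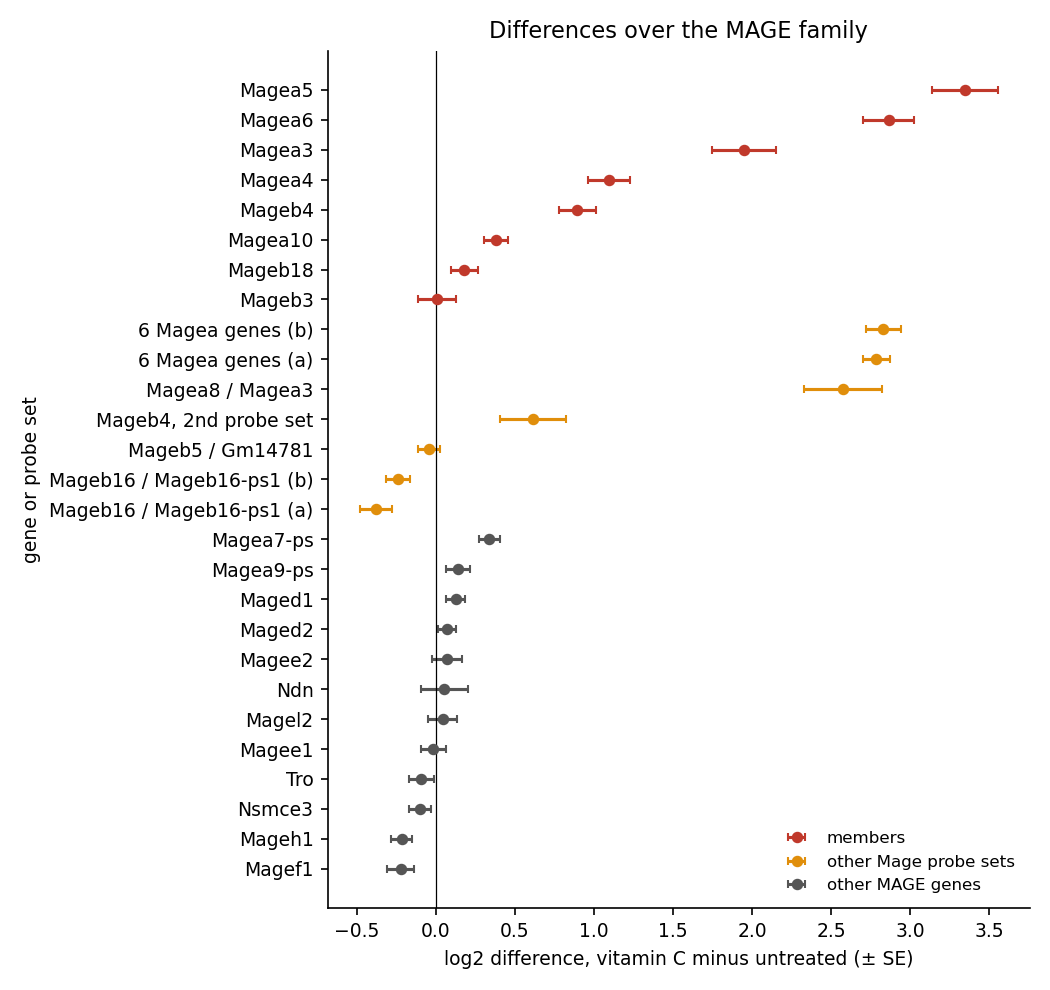
Log2 difference, vitamin C minus untreated (x axis), of the members (red, moderated SE), of other probe sets annotated to Mage genes (orange, SE from the group SDs, n = 3 each) and of the other MAGE genes (grey, moderated SE). All orange probe sets of the Magea cluster lie between 2.58 and 2.83, and the grey genes between -0.22 and 0.34.

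For each member the 3 nearest measured non-Mage genes on either side were taken, 32 genes in all, of which limma called 1 higher and 2 lower (9.38% called against 13.2% of all genes) and 29 did not pass, with a median difference of -0.001. Of the 32, 9 had an unadjusted p under 0.05, as had 5777 of all 19938 genes tested. Those 9 included 4 of 6 beside Mageb18, 3 of 6 beside Mageb3 and 1 of 6 beside Mageb4, with a gene shared by Mageb4 and Mageb18. Beside the cluster of Magea3, Magea5 and Magea6, none of 6 neighbours passed limma, 1 had an unadjusted p under 0.05, and their differences ran from -0.19 to 0.19. These included Sat1, a polyamine acetyltransferase gene, at -0.19, and Spin2c at 0.19. Sat1 passed as lower with a trended and robust spread model (limma adjusted p = 0.0359). Around Magea4 and Magea10 none of 9 passed either (1 at an unadjusted p under 0.05, Prrg3, which passed without vitamin C replicate 3), with differences from -0.36 to 0.20 for genes such as the GABA receptor subunits Gabre, Gabra3 and Gabrq. The neighbour called higher was Dcaf8l, whose name marks it as related to a substrate receptor of CUL4-DDB1 ubiquitin ligases and which lies between Mageb4 and Mageb18 in the order of measured genes. Dcaf8l had 6.07, 5.93 and 5.31 in vitamin C cells and 3.05, 3.32 and 3.42 in untreated cells, where all 3 arrays were dim. Its difference was 2.51 ± 0.20 (SE, limma adjusted p = 0.00062), above those of Mageb4 and Mageb18 on either side of it. Gm5941, beside Mageb18 and named after its values were seen, differed by 0.49 ± 0.15 (SE, limma adjusted p = 0.0808) and passed as higher with a trended and robust spread model and with the replicate number as a block (lowest adjusted p 0.0172). The 2 neighbours that fell lie on chromosome 2 beside Mageb3, Patl2 with -0.72 ± 0.12 (SE, limma adjusted p = 0.00879) and the spastic paraplegia gene Spg11 with -0.38 ± 0.09 (SE, limma adjusted p = 0.032). The call of Spg11 was lost when any 1 array other than vitamin C replicate 2 was left out (limma adjusted p up to 0.102), and without moderation of the spread, where that of Patl2 was lost too (adjusted p = 0.0662). Of all 739 genes tested on the X chromosome 9.34% were called higher and 7.04% lower, and of the 19199 other genes 5.61% and 7.42%.

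**Figure D4:**
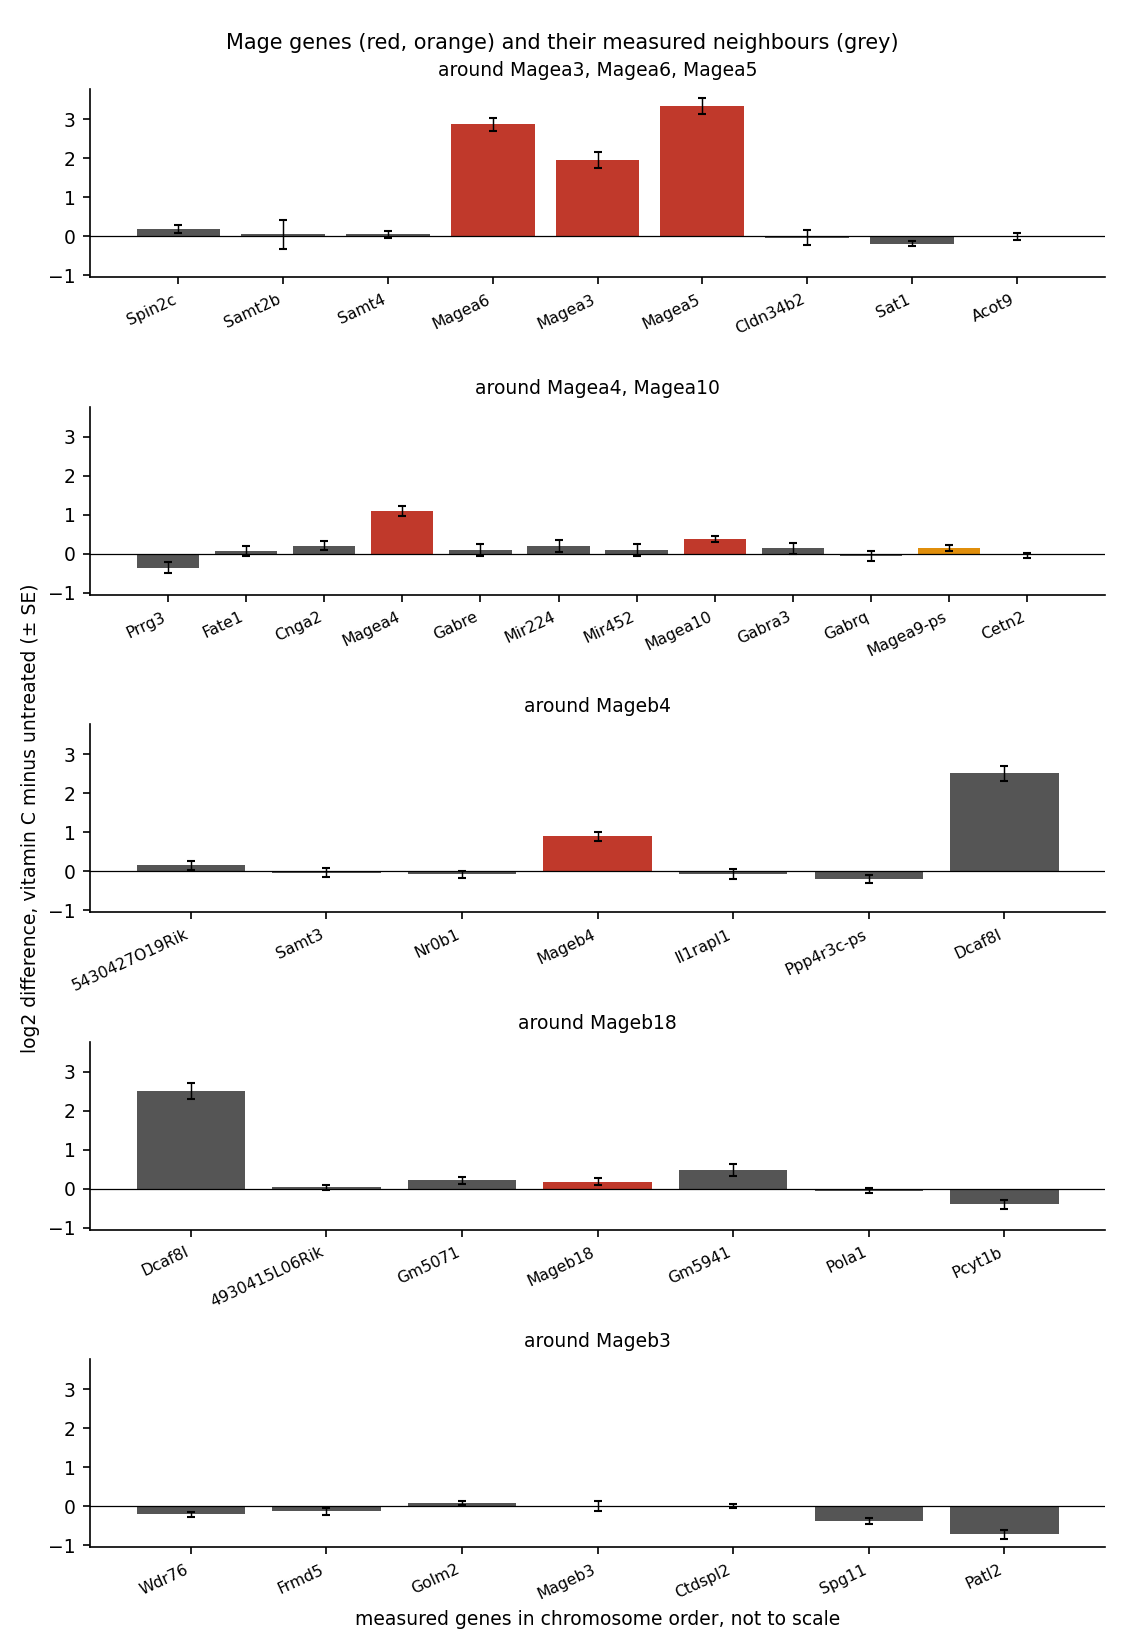
Log2 difference, vitamin C minus untreated (y axis, bars with moderated SE), of the members (red), of another Mage gene (orange) and of their 3 nearest measured neighbours on either side (grey), in chromosome order and not to scale. Tall bars belong to Magea6, Magea3 and Magea5 and to Dcaf8l, which appears in the panels of both Mageb4 and Mageb18.

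Of 18 listed genes whose proteins work with MAGE proteins, limma called 1 lower and 0 higher (5.56% called against 13.2% of all genes) and 17 did not pass, with a median difference of -0.06, and 7 had an unadjusted p under 0.05, in both directions. Trim28, the ligase and co-repressor that MAGEA proteins bind, had 10.09, 10.15 and 10.11 in vitamin C cells and 10.06, 10.07 and 10.12 in untreated cells, a difference of 0.04 ± 0.06 (SE, limma adjusted p = 0.735, 95% interval -0.10 to 0.17). Dcaf12, a substrate receptor through which CUL4 ligases degrade human MAGEA proteins, differed by -0.08 ± 0.07 (SE, limma adjusted p = 0.492). The gene that fell was Ddb1, the adaptor of those CUL4 ligases, with 10.23, 10.39 and 10.35 in vitamin C cells and 10.63, 10.64 and 10.63 in untreated cells (difference -0.31 ± 0.07, SE, limma adjusted p = 0.0224). Its call was lost when any 1 array other than vitamin C replicate 2 was left out, and over all settings tried its adjusted p ran from 7.9e-05 to 0.0668 (limma).

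Cancer-testis genes outside the MAGE family were higher in part. Of the 43 measured genes of a list of 50, limma called 12 higher and 2 lower and 29 did not pass (32.6% called against 13.2% of all genes), while the median difference was 0.02. The whole list was chosen with earlier results of these data known, so its counts are a description. The 4 of 14 germ-cell markers higher with vitamin C (Dazl, Mael, Sohlh2 and Dppa3) are not on this list, which shares Prm1 with those markers. The part of either cell type's markers in these counts was not tested. Among 10 X-linked genes of the list 3 were higher (30.0%, against 9.34% of all X-linked genes tested), none was lower and 7 did not pass. Of these 10 genes 5 were dim on all 6 arrays. Among 33 others 9 were higher (27.3%, against 5.61% of all genes not on X) and 2 lower (6.06% against 7.42%). The X-linked genes that rose were Taf7l, Nxf2 and Tex11, of which Nxf2 and Tex11 were named after their values were seen. Taf7l, a germ-cell relative of a general transcription factor subunit, had 7.26, 7.44 and 7.26 in vitamin C cells and 5.64, 5.43 and 5.78 in untreated cells (difference 1.70 ± 0.10, SE, limma adjusted p = 0.000171). Nxf2, an mRNA export factor gene of germ cells, was higher by 1.46 ± 0.15 (SE, limma adjusted p = 0.00171), with untreated values that were dim on all 3 arrays. Tex11, a gene of meiotic crossing over, was higher by 0.54 ± 0.14 (SE, limma adjusted p = 0.0415). The 5 Ssx genes measured, a large X-linked cancer-testis family, did not pass, and 4 of them were dim on all 6 arrays. Of these, Ssxb2, named after its values were seen, differed by -0.44 ± 0.13 (SE, limma adjusted p = 0.0647) and passed as lower with a trended and robust spread model, with arrays centred on their median and without untreated replicate 3 (lowest adjusted p 0.0148). Autosomal genes that rose included Sycp1 (1.10) and Tex15 (0.93) of meiotic chromosome pairing and recombination (limma adjusted p = 0.000888 and 0.00126), the piRNA-binding protein gene Piwil2 (0.63, adjusted p = 0.00136) and Ctcfl (0.60 ± 0.09, SE, limma adjusted p = 0.00771), whose product BORIS is a testis paralogue of CTCF that has been linked to MAGEA transcription in human cells. The Ctcfl call was lost without moderation of the spread (adjusted p = 0.0537). The 2 that fell, Oip5 (-0.40 ± 0.07, SE, limma adjusted p = 0.011) and Kif2c (-0.29 ± 0.08, SE, limma adjusted p = 0.0446), act at centromeres in dividing cells. The calls of Kif2c and Tex11 were lost when any 1 array other than vitamin C replicate 2 was left out, and also without moderation of the spread and with quantile normalization repeated (limma adjusted p up to 0.127 and 0.155 over all settings).

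**Figure D5:**
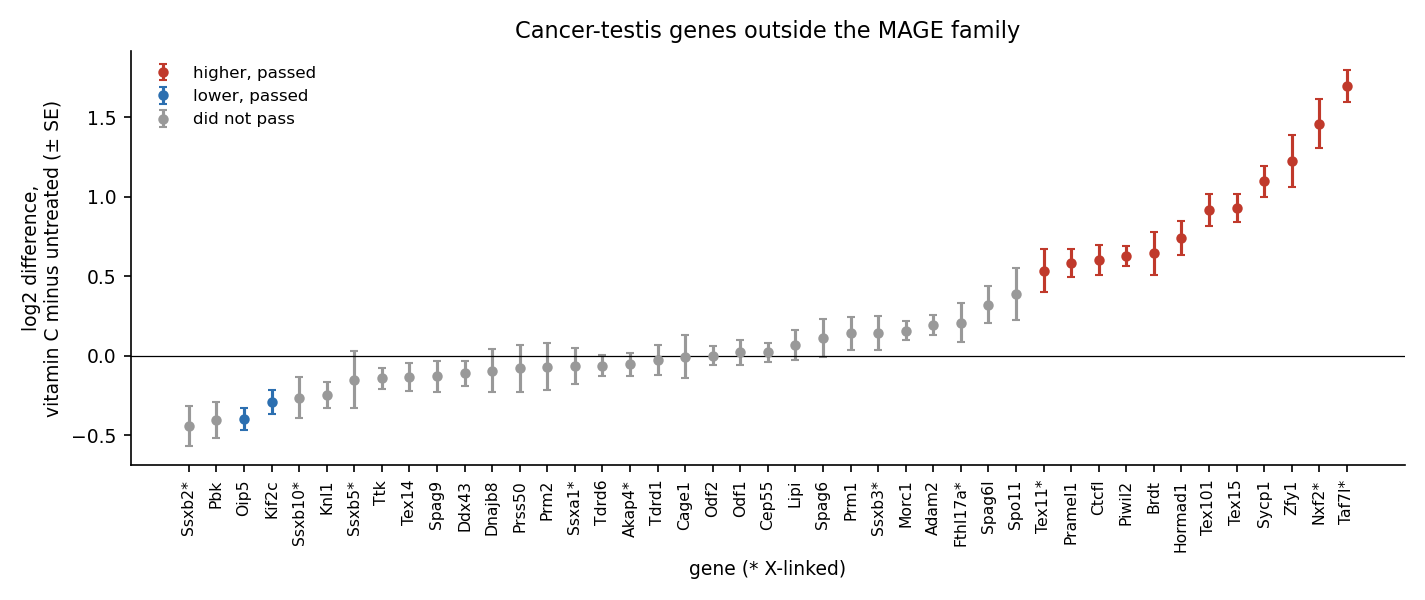
Log2 difference, vitamin C minus untreated (y axis, moderated SE), of 43 cancer-testis genes outside the MAGE family (x axis, asterisks mark X-linked genes), coloured by the limma call. The 12 red genes lie between 0.54 and 1.70, and the 2 blue genes at -0.40 and -0.29.

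Profiles most like the members' mean profile were sought among 18596 named genes outside the family, by the root mean square distance between log2 values centred on each gene's own mean over the 6 arrays. The closest were Hal, histidine ammonia-lyase (0.09), Cyyr1 (0.09), the membrane metalloendopeptidase gene Mme (0.10), the angiopoietin receptor gene Tek (0.10) and Gsto1, a glutathione transferase that can reduce dehydroascorbate (0.10). The single nearest gene of Magea5 was Aspa (distance 0.27), of Magea6 Pramel6 (0.22), of Magea3 Gpx2 (0.23), of Magea4 Sycp1 (0.08), of Magea10 Ctbp2 (0.03), of Mageb4 Slco2a1 (0.07), of Mageb18 Slc39a9 (0.02) and of Mageb3 Gdpd1 (0.03). Within the family the profiles of Magea4 and Mageb4 were close (0.18), and those of Magea5 and Mageb3 lay farthest apart (1.69). These distances cover 6 arrays in 2 groups and count the size of a difference as well as its shape.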

How the data were processed

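RNA of 3 vitamin C and 3 untreated cultures was hybridised to Affymetrix arrays, after column extraction with DNase, whole-transcriptome amplification and biotin labelling per the labels' protocols. Deposited signals, log2 values as judged from their range, come from RMA per the submitters' processing notes. The software and summary level of RMA were not stated there. Quantile normalization, part of RMA in general, would hide a shift shared by all genes. Array medians over 35557 probe sets were 5.52 to 5.60, and precision is set by 3 arrays per group.

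The platform annotation gave 1 symbol for 21789 probe sets and several for 1621. The 19938 genes with a symbol of their own were tested, 999 of them with more than 1 probe set, of which the one with the highest mean was taken. A RefSeq gene table (GRCm38.p6) matched 19855 genes by gene ID and served for chromosomes and gene order, and promoter sequences came from the RefSeq table of the same build. A two-sided moderated test without covariates (limma 3.58.1, R 4.3.3) compared vitamin C with untreated, with p-values adjusted by Benjamini-Hochberg over all genes and a call at 0.05. It was tested on simulated data. The members, lists and tests were chosen with earlier results of these data known. The rule for named genes took every MAGE gene, up to 4 called genes of each other list in each direction with the smallest p, and Trim28, Dcaf12 and Ctcfl; other names were chosen after their values were seen. Replicate numbers were not treated as pairs, since deviations of same-numbered arrays correlated at 0.05, 0.01 and -0.02. Alternatives were a replicate block, other spread models, median centring, repeated quantile normalization, omission of dim genes, averaged probe sets, array weights, a stricter threshold and each array left out in turn. Promoters were aligned with Biopython 1.88 and figures drawn with matplotlib 3.10.9.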

Additional observations from a re-analysis of the deposited data

How the results depend on the processing

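The members' median difference of 0.99 lay between 0.92 and 1.09 under the alternatives that kept all arrays and between 0.91 and 1.10 with 1 array left out. The difference of each called member stayed positive throughout, while the sign of Mageb3 turned under some settings (-0.12 to 0.12). At an adjusted p under 0.05, 5 of the 8 were called without moderation, without vitamin C replicate 1 and without untreated replicate 3. The other fits called 6, with dim genes left out 6 of the 7 members kept. That filter used each gene's mean over all 6 arrays. Magea3, Magea5 and Magea6, with untreated means of 3.535, 3.738 and 3.282, were kept through their vitamin C values. For these genes the filter is therefore no check on dim signals. The count of all genes called was 1723 with the replicate block, 4151 with the trended and robust spread model, 1545 without moderation, 901 at an adjusted p under 0.01 and 1483 to 1721 with 1 array left out (2623 in the fit reported). Centring arrays on their median gave 866 higher and 1830 lower genes, against 1147 and 1476. Of the other MAGE genes 0 were called with the replicate block and at 0.01, 2 with the trended model, and 0 to 1 with 1 array left out. Of the partner genes 0 were called with the replicate block and at 0.01, 5 with the trended model, 3 without moderation, 2 with arrays centred on their median, 2 with dim genes left out, and 0 to 1 with 1 array left out. Of the other cancer-testis genes 8 were called without moderation. Of the neighbour genes 4 were called with the replicate block, 7 with the trended model and 1 without moderation. The fits with fewer arrays have fewer degrees of freedom, and the cause of the other changes was not tested. The calls of Magea7-ps, Ddb1, Kif2c and Tex11 were lost with the replicate block. The replicate numbers carry no pairing in the labels (correlations of deviations 0.05, 0.01 and -0.02). Dim signals limit Magea3, Magea5, Magea6 and Mageb18, and the filter on dim genes removed Mageb18.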
